A study of Mus musculus with 4 samples.

Results

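Small heat shock proteins and the chaperones of the HSP70 and HSP90 systems were followed in C2C12 myoblasts after knockdown of *Hnrnpl*. The genes were taken from a list of 10 symbols: the small heat shock protein genes *Cryab*, *Hspb1*, *Hspb2* and *Hspb8*, the co-chaperone gene *Bag3*, the HSP70 genes *Hspa1a* and *Hspa8*, the HSP90 genes *Hsp90aa1* and *Hsp90ab1*, and the transcription factor gene *Hsf1*. All 10 were found among the 56748 gene IDs of the count tables, and each had at least 1 read in some library. C2C12 is an established mouse myoblast line. The cells were labelled wild type and received either plasmids for a mixture of 3 shRNAs against *Hnrnpl*, which encodes an RNA-binding protein, or a scrambled shRNA. In both groups the plasmid also expressed eGFP, and stable cells were selected with puromycin. Each group had 2 libraries, made from different passages of 1 selected line, so p-values measure the spread between passages, and the knockdown and the choice of line cannot be told apart. The labels number the replicates, and the libraries with the same number are called a batch here. Each of the 2 batches held 1 scrambled and 1 knockdown library. Total RNA was read by nanopore direct RNA sequencing, in which each read starts at the poly(A) end of 1 molecule, and the count of a gene is the number of reads assigned to it.

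Small heat shock proteins bind unfolding proteins without using ATP and keep them from aggregating. HSP70 and HSP90 proteins then refold or mature their clients in ATP-driven cycles, and BAG3 joins HSP70 to HSPB8 in a complex that sends damaged muscle proteins such as filamin to autophagy. HSF1 is the transcription factor that binds heat shock elements, which are repeats of GAA and TTC, and drives many of these genes under stress. In muscle, αB-crystallin, the product of *Cryab*, and HSP27, the product of *Hspb1*, are abundant and bind desmin and actin filaments.

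The libraries held 1229424 to 1676911 reads on genes, which was 56.5% to 57.8% of all reads. Levels are given as CPM, the reads of a gene scaled to a common total of reads on genes. At these depths a count of 0 allows 1.79 to 2.44 CPM (taken at 3 counts), a limit that covers counting error only. The target gene *Hnrnpl* had 358 reads in scrambled 1, 656 in scrambled 2, 242 in knockdown 1 and 258 in knockdown 2. Its log2 fold change of knockdown over scrambled (log2FC) was -0.78 ± 0.18 (standard error; adjusted p = 0.0112, edgeR quasi-likelihood test, Benjamini-Hochberg adjusted). Myoblast markers were not all present. *Pax7* had no reads and *Myod1* had 1 read in all, while the 4 markers with reads of the 5 listed summed to 463 and 545 CPM in scrambled and 358 and 300.1 CPM in knockdown. *Cdh15*, a cadherin of myoblasts, fell by 2.55 (adjusted p = 2.03e-06 from edgeR) and *Des*, which encodes desmin, fell by 0.56 (adjusted p = 0.0308 from edgeR). The remaining tested marker, *Myf5*, had a log2FC of -0.16 (adjusted p = 0.615 from edgeR) and was not called. Markers of differentiated muscle reached 5.82 to 11.5 CPM in sum with 7 of 10 at 0, and those of macrophages, endothelium and adipocytes reached at most 3.25 CPM. In bulk RNA, fewer cells with a transcript and less of it per cell cannot be told apart. The part of the lower myoblast markers in the results that follow was not tested.

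The 8-base motif GAANNTTC, a pair of heat shock units facing each other, was searched in the 300-base promoters of the 10 genes (250 bases before to 50 bases after the start of the canonical transcript in GENCODE vM39, genome build GRCm39). The motif reads the same on both strands. It was found in 3 promoters, and the sites are shown because those of *Cryab* and *Hspb1* belong to small heat shock protein genes that lay on opposite sides of 0 on knockdown. In each 30-base window the capitals mark the motif, read 5′ to 3′ on the strand of the gene.
Cryab, chr9:50664137-50664166, plus strand: gctaagcctagGAAGATTCcagtccctgcc
Hspb1, chr5:135916645-135916674, plus strand: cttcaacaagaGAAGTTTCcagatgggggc
Hspb1, chr5:135916665-135916694, plus strand: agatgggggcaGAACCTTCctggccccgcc
Hspa1a, chr17:35191218-35191247, minus strand: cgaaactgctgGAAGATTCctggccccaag

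The site of *Cryab* starts 39 bases before the transcript start, those of *Hspb1* start 104 and 84 bases before it, and that of *Hspa1a* starts 104 bases before it. The *Hspb1* windows overlap, because the sites lie close together. Of 21770 protein-coding promoters of the same length, 7.41% held this motif. The pair facing away, TTCNNGAA, was in 7.98% of all promoters and in none of the 10, and GAANNTTC followed by 2 free bases and 1 further GAA was in 0.478% of all promoters and in none of the 10. Both of these longer forms contain GAANNTTC. A match to these letters is a description and was not tied to binding here.

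In levels per length, which are CPM per kilobase of the canonical transcript, the 10 genes spanned a wide range. Each direct RNA read stands for 1 molecule, so counts are not expected to grow with length. The division by length lowers long transcripts against short ones and is a descriptive scale only. *Hsp90ab1* was highest, with 739.8 CPM per kilobase as the mean of 4 libraries and 653 to 815 across them. *Cryab* followed at 350.2 (range 294 to 409) and *Hsp90aa1* at 189.5 (range 176 to 196). On this scale these 3 genes did not overlap each other. *Hspb1* stood at 147 (range 107 to 196), and its range overlapped that of *Hsp90aa1*. *Bag3* at 27.5 (range 25.3 to 31.1), *Hspb8* at 22.1 (range 16.9 to 27.6) and *Hsf1* at 16.8 (range 14.3 to 19.4) formed a middle group in which neighbours overlapped. *Hspa8* stood at 5.36 (range 3.74 to 8.73) and is treated further on, since its transcript has a near-identical copy in the genome. *Hspb2* at 0.998 and *Hspa1a* at 0.234 overlapped each other and each had a library at 0. Without the division by length, mean CPM was 1999.7 for *Hsp90ab1*, 669 for *Hsp90aa1*, 592 for *Cryab* and 135 for *Hspb1*. *Hspb1* then did not overlap *Hsp90aa1*, at 97.6 to 179 CPM against 623 to 692 CPM. Mean CPM was 86.5 for *Hsf1*, 72.1 for *Bag3* and 46.7 for *Hspb8*. By CPM, the order of *Hsp90aa1* and *Cryab* depended on the library. *Hsp90aa1* stood above *Cryab* in scrambled 1 (692 against 497 CPM) and scrambled 2 (670.3 against 522 CPM), below it in knockdown 1 (623 against 656 CPM), and at the same 850 reads in knockdown 2.

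**Figure D1:**
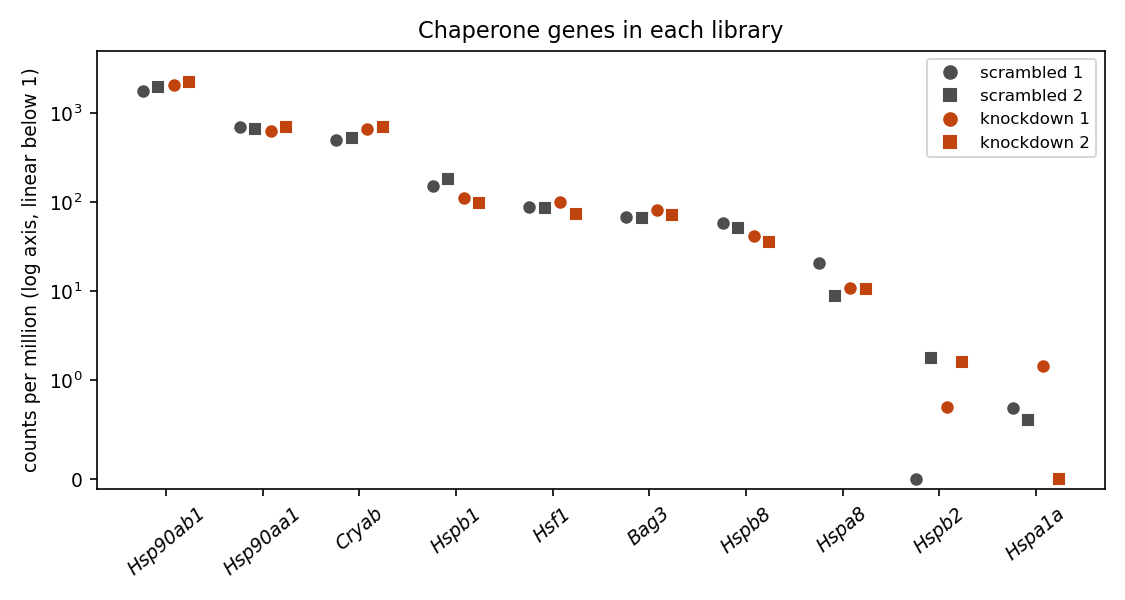
CPM of the 10 chaperone genes in each of the 4 libraries, on an axis that is logarithmic above 1 and linear below. Grey marks are scrambled and orange marks knockdown libraries, circles are batch 1 and squares batch 2; Hspb1 and Hspb8 lie lower and Cryab higher in both knockdown libraries, and Hspb2 and Hspa1a have between 0 and 3 reads per library.

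The low-count filter of edgeR kept 8 of the 10 genes. *Hspb2* and *Hspa1a* did not. The thresholds of the study were used for a call: adjusted p under 0.05, log2FC beyond 0.5 in either direction, and more than 10 normalized counts on average. *Hspb1* was called lower, and no gene was called higher. Across the 8670 genes tested, 5.55% were called, 2.33% higher and 3.22% lower. At an unadjusted p under 0.05 stood 1 higher gene (*Cryab*) and 2 lower genes (*Hspb1* and *Hspb8*), where all tested genes gave 10.3% higher and 11.5% lower. The groups did not overlap for 3 genes that lay higher (*Cryab*, *Bag3* and *Hsp90ab1*) and 2 that lay lower (*Hspb1* and *Hspb8*), where all tested genes gave 26.4% and 26%. The median log2FC was -0.05 over the 8 genes and -0.00059 over all genes tested.

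*Hspb1* (ENSMUSG00000004951.11, chromosome 5, 135916760 to 135918417, plus strand) encodes HSP27, a small heat shock protein that binds actin filaments. It had 211 reads in scrambled 1, 301 in scrambled 2, 151 in knockdown 1 and 120 in knockdown 2. Further values are given in this order of libraries. In normalized counts, which are counts scaled by the TMM method to the mean library size, these were 221 and 253 in scrambled and 150.4 and 140.2 in knockdown. Both knockdown libraries lay below both scrambled libraries, and the distance between the groups was larger than that within either group. The scrambled mean was 237 ± 22.8 and the knockdown mean 145 ± 7.21 (SD, n = 2 each). *Hspb1* fell, with a log2FC of -0.71 (standard error 0.16, 95% interval -1.04 to -0.38, adjusted p = 0.0104 from edgeR), and its mean decreased by 38.7%. Within the batches, the log2 ratio was -0.55 in batch 1 and -0.85 in batch 2. The call rested on most of the libraries: the adjusted p of edgeR was 0.0863 without scrambled 2, 0.0628 without knockdown 1 and 0.0562 without knockdown 2, with the log2FC between -0.80 and -0.61 when any single library was left out. Over all 17 alternatives the adjusted p lay between 0.00141 and 0.179. With the local fit of DESeq2 it was 0.0292 for the Wald test and 0.0307 for the likelihood-ratio test, and *Hspb1* was called. These local fits called 2.68% and 2.37% of all genes. With the parametric fit of DESeq2 the adjusted p was 0.157 for the Wald test and 0.179 for the likelihood-ratio test. Over all genes, DESeq2 called 1.27% with the Wald test and 1.07% with the likelihood-ratio test in this fit, and edgeR called 4.75% without scrambled 1, 4% without scrambled 2, 2.14% without knockdown 1, 4.43% without knockdown 2 and 5.58% with the replicate block.

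*Hspb8* (ENSMUSG00000041548.5, chromosome 5, 116546409 to 116561084, minus strand) encodes the small heat shock protein that works with BAG3. It had 81 and 86 reads in scrambled and 57 and 44 in knockdown, or 84.8, 72.3, 56.8 and 51.4 normalized counts. Both knockdown libraries lay below both scrambled libraries. The scrambled mean was 78.6 ± 8.81 and the knockdown mean 54.1 ± 3.79 (SD, n = 2 each). Its log2FC of -0.53 (standard error 0.21, 95% interval -0.96 to -0.09) did not pass the test (unadjusted p = 0.0205, adjusted p = 0.142 from edgeR). None of the 17 alternatives brought its adjusted p under 0.05, with values between 0.05001 and 0.967. The ratios within batches were -0.58 and -0.49 on the log2 scale.

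*Cryab* (ENSMUSG00000032060.11, chromosome 9, 50651859 to 50668567, plus strand) encodes αB-crystallin, the chaperone of desmin. It had 690 and 876 reads in scrambled and 902 and 850 in knockdown. After scaling these were 722 and 737 normalized counts in scrambled and 899 and 993 in knockdown. Both knockdown libraries lay above both scrambled libraries, which were close to each other. The scrambled mean was 729.7 ± 10.3 and the knockdown mean 946 ± 67.0 (SD, n = 2 each). The log2FC was 0.37 (standard error 0.13, 95% interval 0.09 to 0.66, unadjusted p = 0.0120, adjusted p = 0.108 from edgeR), so *Cryab* did not pass the test. Within batches the log2 ratio was 0.31 and 0.43.

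The chromosomes of these genes differed in their own medians. The 492 tested genes of chromosome 9, which carries *Cryab* and *Hspa8*, had a median log2FC of -0.37, and the 555 of chromosome 5, with *Hspb1* and *Hspb8*, a median of 0.23. With the median of each chromosome removed, *Cryab* had a log2FC of 0.74 (adjusted p = 0.00278 from edgeR) and was called higher. In that setting *Hspb1* had -0.94 (adjusted p = 0.00141 from edgeR) and *Hspb8* had -0.76 (adjusted p = 0.05001 from edgeR), while *Hspa8* moved towards 0, to -0.10. This setting called 2 of the 8 genes, 1 higher and 1 lower, and 3.3% of all genes tested. It was the 1 setting of 17 in which the adjusted p of *Cryab* was under 0.05.

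**Figure D2:**
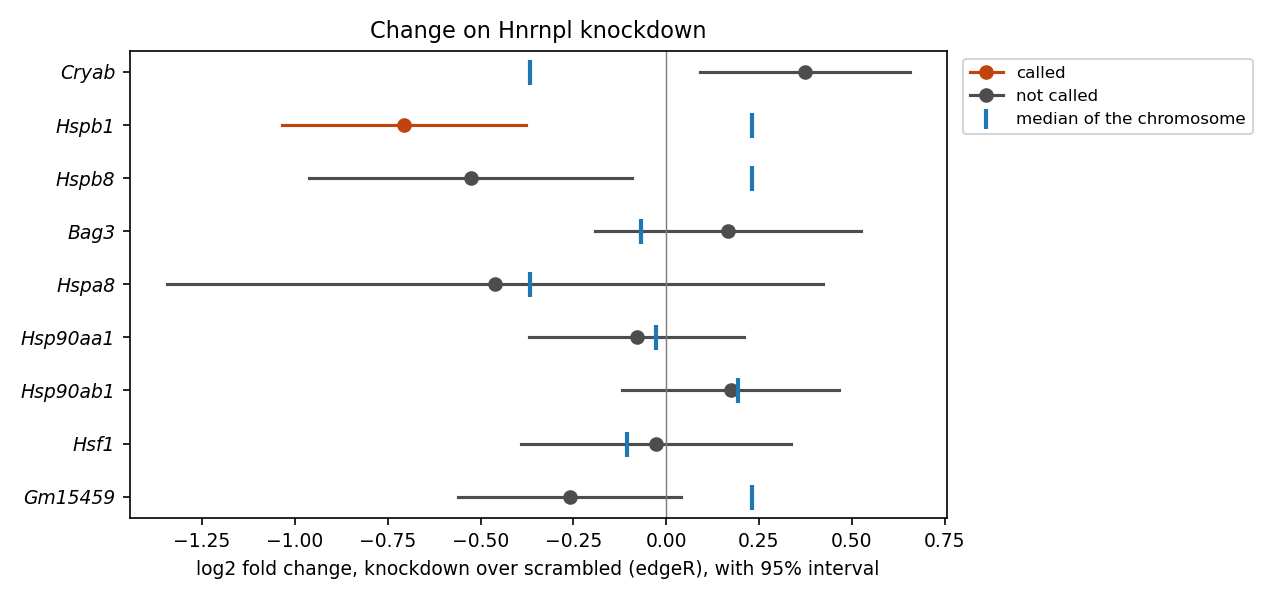
Log2FC of knockdown over scrambled with its 95% interval from edgeR for the 8 tested chaperone genes and for the Hspa8 copy Gm15459, with the called gene in orange and the median of each gene's chromosome as a blue bar. The bar of Gm15459 is that of chromosome 5, and its reads cannot be told from those of Hspa8 on chromosome 9. The intervals of Hspb1 and Hspb8 lie below 0 and that of Cryab above 0, each on the other side of 0 from its chromosome's median; the remaining 6 intervals contain 0.

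*Hspb2* (ENSMUSG00000038086.5, chromosome 9, 50662378 to 50663858, minus strand) encodes a muscle small heat shock protein and is transcribed away from *Cryab*, with 329 bases between the start sites of their canonical transcripts. It had 0 and 3 reads in scrambled and 1 and 2 in knockdown and was not tested. These counts are uncertain: 55.5% of its transcript, 576 bases, lies opposite to *Cryab* exons of other transcripts, and the strand setting of the counting is not given in the sources used here. No difference in *Hspb2* was detectable at this depth.

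Reads of 1 gene per 100 reads of another need no scaling between libraries. This measure was added after the data were seen. *Hspb1* had 30.6 and 34.4 reads per 100 reads of *Cryab* in scrambled and 16.7 and 14.1 in knockdown. *Hspb8* had 11.7 and 9.82 reads per 100 of *Cryab* in scrambled and 6.32 and 5.18 in knockdown. Since *Hspb1* and *Hspb8* lay lower and *Cryab* higher in both knockdown libraries, the choice of these genes fixed the direction of both ratios, which describe the same counts and add no support. The smallest two-sided p that exact permutation of 4 libraries allows is 0.333.

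*Bag3* (ENSMUSG00000030847.9, chromosome 7, 128125283 to 128148705, plus strand) encodes the co-chaperone that binds HSP70 and HSPB8. It had 95 and 111 reads in scrambled and 112 and 89 in knockdown, or 99.5, 93.4, 112 and 104 normalized counts. The knockdown libraries lay above the scrambled ones by a small margin. Its log2FC was 0.17 (standard error 0.17, 95% interval -0.19 to 0.52, adjusted p = 0.620 from edgeR). Per 100 reads of *Bag3*, its partner *Hspb8* had 85.3 and 77.5 reads in scrambled and 50.9 and 49.4 in knockdown. The direction of this ratio was likewise fixed by the choice of the genes.

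**Figure D3:**
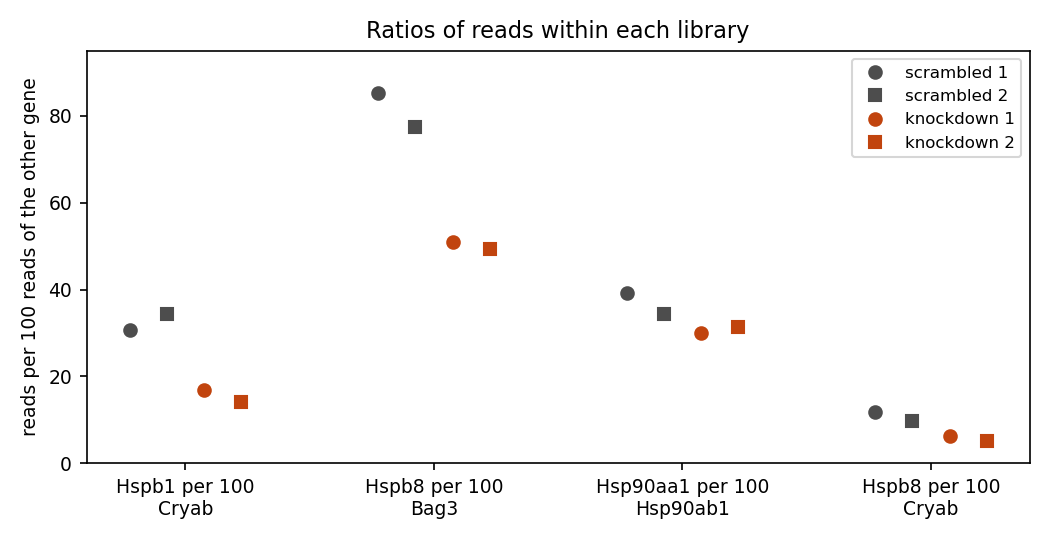
Reads of 1 chaperone gene per 100 reads of another, computed within each library, with grey marks for scrambled and orange for knockdown, circles for batch 1 and squares for batch 2. All 4 ratios lie lower in both knockdown libraries, from means of 32.5 to 15.4 for Hspb1 per 100 Cryab and of 81.4 to 50.2 for Hspb8 per 100 Bag3. All were chosen after the data were seen, describe the same counts as the single genes and add no support. The smallest two-sided p of exact permutation for such a comparison is 0.333.

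*Hsp90ab1* (ENSMUSG00000023944.15, chromosome 17, 45878552 to 45891949, minus strand) encodes the constitutive cytosolic HSP90. It had 2450 and 3279 reads in scrambled and 2850 and 2710 in knockdown, and 2565, 2758.5, 2839 and 3167 normalized counts. The groups did not overlap, but the distance between them was smaller than that within either group. The log2FC was 0.17 (standard error 0.14, 95% interval -0.12 to 0.47, adjusted p = 0.505 from edgeR), and the median of chromosome 17 was 0.19. Without knockdown 2 the log2FC of *Hsp90ab1* was 0.0914, and without knockdown 1 it was 0.251. *Hsp90aa1* (ENSMUSG00000021270.14, chromosome 12, 110656842 to 110669166, minus strand) encodes the stress-inducible cytosolic HSP90. It had 960 and 1124 reads in scrambled and 856 and 850 in knockdown, and 1005, 946, 853 and 993 normalized counts. Its groups overlapped. The log2FC was -0.08 (standard error 0.14, 95% interval -0.37 to 0.21, adjusted p = 0.787 from edgeR). For each HSP90 gene the interval left out a change of 0.5 in either direction. *Hsp90aa1* had 39.2 and 34.3 reads per 100 reads of *Hsp90ab1* in scrambled and 30.04 and 31.4 in knockdown. This ratio too was chosen after the data were seen, describes the same counts and adds no support.

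*Hspa8* (ENSMUSG00000015656.18, chromosome 9, 40711630 to 40731039, plus strand) encodes HSC70, the constitutive HSP70 of the cytosol. Only 29 and 15 reads were counted on it in scrambled and 15 and 13 in knockdown. Its log2FC of -0.46 had a 95% interval of -1.34 to 0.42 (adjusted p = 0.565 from edgeR) and changed sign, to 0.25, without scrambled 1. The groups overlapped. On *Gm15459* (ENSMUSG00000100801.2, chromosome 5, 5831615 to 5833555, minus strand), a processed pseudogene without introns, 3615 and 4549 reads were counted in scrambled and 2920 and 2951 in knockdown. The annotated transcript of *Hspa8* aligned to *Gm15459* over 87.9% of its length (2105 bases) at 99.4% identity, so the reads of these 2 genes are uncertain and cannot be assigned to either from the counts. Of the 9 annotated copies of *Hspa8* found in the count tables, *Gm8355* had 5 reads and the remaining 7 beside *Gm15459* had none.

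Exon junctions of *Hspa8* are shown to make the likeness concrete. Of its 8 junctions, 6 were found unbroken over 30 bases in *Gm15459*, so a spliced *Hspa8* read and a read of the copy carry the same letters there. The capitals mark the first 15 bases of the downstream exon, and the sequences are from GRCm39.
Hspa8 exons 2 and 3, found at chr5:5833336-5833365, minus strand: ccaacacagtttttgATGCCAAACGTCTGA
Hspa8 exons 4 and 5, found at chr5:5832977-5833006, minus strand: ggcttagataagaagGTCGGAGCTGAAAGG
Hspa8 exons 5 and 6, found at chr5:5832421-5832450, minus strand: ttgcctatggtgcagCTGTCCAGGCAGCCA

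*Gm15459* had 3785 and 3827 normalized counts in scrambled and 2909 and 3449 in knockdown. Both knockdown libraries lay below both scrambled libraries, but the gap between the groups was smaller than the gap between the knockdown libraries. Its log2FC of -0.26 (standard error 0.14, 95% interval -0.56 to 0.04, adjusted p = 0.303 from edgeR) did not pass the test. It was -0.14 without knockdown 1, -0.39 without knockdown 2 and -0.49 with the chromosome medians removed (adjusted p = 0.0672 from edgeR). The last value used the median of chromosome 5, 0.23, where *Gm15459* lies. *Hspa8* lies on chromosome 9, with a median of -0.37. The value with medians removed therefore depends on an assignment of the reads that the counts do not settle. When the reads of all copies were added to *Hspa8*, an alternative that was added later, the sums were 3648 and 4564 reads in scrambled and 2935 and 2965 in knockdown. For the sum, the log2FC was -0.26 (95% interval -0.56 to 0.04, adjusted p = 0.299 from edgeR).

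**Figure D4:**
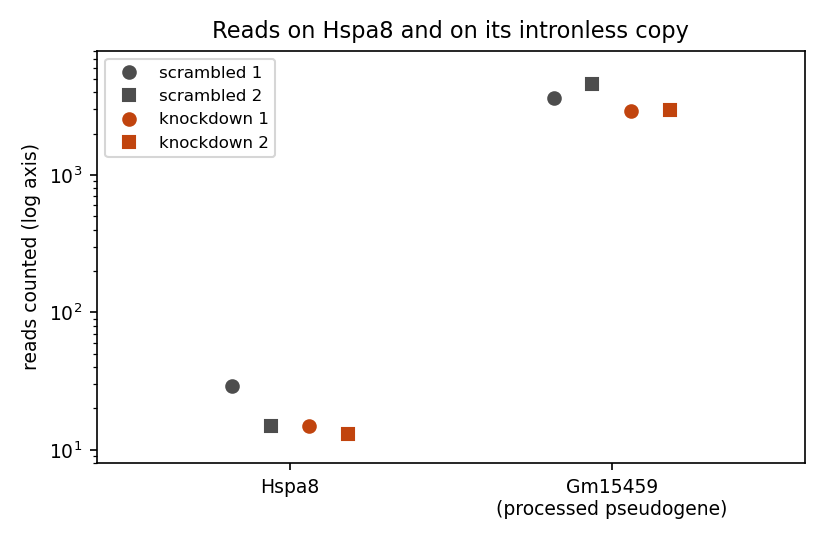
Reads counted on Hspa8 and on its processed pseudogene Gm15459 in each library, on a logarithmic axis, with grey marks for scrambled and orange for knockdown, circles for batch 1 and squares for batch 2. Hspa8 has 13 to 29 reads and the copy 2920 to 4549 reads in every library.

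*Hspa1a* (ENSMUSG00000091971.4, chromosome 17, 35188166 to 35191132, minus strand) encodes the stress-inducible HSP70. It had 1 read in each scrambled library and 2 and 0 reads in knockdown and was not tested. Its neighbour *Hspa1b* encodes the same kind of HSP70 and matches 74% of the *Hspa1a* transcript at 99.2% identity, so the split of reads between them is uncertain. *Hspa1b* had 47 and 64 reads in scrambled and 94 and 43 in knockdown. Knockdown 1 stood apart, and the groups overlapped. With both genes added, also an alternative of later choice, the sums were 48, 65, 96 and 43 reads and the log2FC was 0.49 (95% interval -0.04 to 1.03, adjusted p = 0.276 from edgeR). For *Hspa1b* alone the log2FC was 0.50 (adjusted p = 0.267 from edgeR), -0.04 without knockdown 1 and 0.85 without knockdown 2 (adjusted p = 0.0405 from edgeR).

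*Hsf1* (ENSMUSG00000022556.12, chromosome 15, 76361558 to 76388138, plus strand) had 121 and 144 reads in scrambled and 137 and 90 in knockdown, or 127, 121, 136 and 105 normalized counts. The scrambled libraries lay between the knockdown libraries. The scrambled mean was 124 ± 3.92 and the knockdown mean 121 ± 22.1 (SD, n = 2 each), and the log2FC was -0.03 (95% interval -0.39 to 0.34, adjusted p = 0.950 from edgeR). Its counts are uncertain as well, because 48.4% of its canonical transcript lies opposite to exons of *Dgat1*. The annotated exons of *Cryab*, *Hspb8*, *Bag3*, *Hspa1a*, *Hspa8*, *Hsp90aa1* and *Hsp90ab1* also overlapped genes on the opposite strand. These overlaps covered 1.95% to 19% of the transcript for any 1 gene, and none was found for *Hspb1*. The transcript of *Hspb1* did align to a processed pseudogene, *Hsp25-ps1*, over 89% of its length at 99.5% identity. This copy had 2 and 5 reads in scrambled and 2 and 2 in knockdown. For *Hsp90aa1*, the copy *Gm12346* matched 78.5% of the transcript at 99.4% identity, with 15, 23, 19 and 15 reads. The split of reads between these genes and their copies is uncertain as well.

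HNRNPL is known to bind CA repeats, so the canonical transcripts were searched for CACACACA on the transcript strand. It occurred at 5 overlapping positions in *Hsp90aa1* and at 1 position in *Hsf1*, and in none of the other 8 transcripts, *Hspb1* among them. Of 8140 protein-coding transcripts with at least 40 reads, 20.1% held it. Introns, which the paper names among the preferred places of binding, were not searched, nor were CA-rich stretches without this motif. A match is not a binding site, and binding was not measured here.

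Among 67 further genes of the same pathway, taken from 8 lists, 53 were tested and none was called, where edgeR called 5.55% of all genes tested. No adjusted p of edgeR was under 0.05 among them. At an unadjusted p under 0.05 stood 5 higher and 7 lower genes, and none was called by DESeq2 with its Wald test and local fit, where 2.68% of all genes were. Without a filter on low counts edgeR called 1 of them and 3.66% of all genes. The median log2FC of the 53 genes was -0.03. The groups did not overlap for 9 higher and 15 lower genes of the 53, where all tested genes gave 26.4% and 26%, and 10.3% and 11.5% at an unadjusted p under 0.05.

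Of the other small heat shock protein genes, *Cryaa*, *Hspb3* and *Hspb9* had no reads and *Hspb7* had 1. *Hspb6*, which encodes HSP20, a partner of αB-crystallin in muscle, had 65 and 58 reads in scrambled and 89 and 65 in knockdown. In normalized counts its knockdown libraries lay above its scrambled libraries, at 82.3 ± 8.98 against 58.4 ± 13.6 (SD, n = 2 each). Its log2FC of 0.52 (95% interval 0.07 to 0.96, adjusted p = 0.164 from edgeR) did not pass the test, and it was 0.27 without scrambled 2 and 0.76 without scrambled 1.

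Of the 13 other HSP70 and HSP110 genes, 10 were tested, 5 with a log2FC above 0 and 5 below, with a median of -0.03. The most abundant were *Hspa5*, the HSP70 of the endoplasmic reticulum, at -0.20 (adjusted p = 0.528 from edgeR), and *Hspa9*, the mitochondrial HSP70, at -0.39 (adjusted p = 0.0929 from edgeR). With the chromosome medians removed, *Hspa9* was at -0.11 (adjusted p = 0.774 from edgeR). The 7 tested J-domain co-chaperone genes, which start the ATP cycle of HSP70, had a median of -0.03, with *Dnaja2* at -0.03 and *Dnaja1* at 0.08. The 7 tested genes of BAG proteins and other HSP70 regulators had a median of 0.07, with *St13* at -0.12 and *Bag1* at -0.05. No gene of these last 2 lists had an unadjusted p under 0.05. In the annotation, 90.2% of the *Dnaja1* transcript lies opposite to exons of *Smu1*, and 44.5% of the *Hspa5* transcript opposite to exons of *Rabepk*. The counts of *Dnaja1* and *Hspa5* are therefore uncertain, as for *Hsf1*.

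The 16 tested genes of other HSP90 proteins and HSP90 co-chaperones had a median of -0.13. At an unadjusted p under 0.05 stood 1 higher and 4 lower of them, where all tested genes gave 10.3% and 11.5%. The groups did not overlap for 4 higher and 8 lower genes of the 16, against 26.4% and 26% of all tested genes. The most abundant were *Stip1*, the adaptor between HSP70 and HSP90, at -0.22 (adjusted p = 0.354 from edgeR) and *Fkbp4*, a steroid receptor co-chaperone, at 0.03. The genes named next were chosen after their values were seen. *Cdc37*, which brings kinases to HSP90, had 362 and 512 reads in scrambled and 293 and 259 in knockdown, a log2FC of -0.45 (adjusted p = 0.0687 from edgeR), on chromosome 9 with its median of -0.37. With the chromosome medians removed, its log2FC was -0.08. *Trap1*, the mitochondrial HSP90, had 7 and 14 reads in scrambled and 28 and 16 in knockdown, a log2FC of 1.26 (adjusted p = 0.0713 from edgeR).

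Of the heat shock factor list, *Hsbp1*, which encodes a binding protein of HSF1, had a log2FC of -0.07 and *Hsf2* of 0.86 on 17, 10, 25 and 18 reads (adjusted p = 0.215 from edgeR). For *Hsf2* it was 0.37 without scrambled 2 and 1.44 without scrambled 1. The 14 other heat shock response genes were all tested and had a median of 0.05, with 2 higher and 2 lower at an unadjusted p under 0.05, against 10.3% and 11.5% of all tested genes. In normalized counts, not divided by length, the most abundant there was *Ubb*, a ubiquitin gene, with a log2FC of -0.21 (adjusted p = 0.419 from edgeR). For *Ubb* it was -0.101 without knockdown 1 and -0.322 without knockdown 2. Of the 6 partners of BAG3 and HSPB8 in chaperone-assisted selective autophagy, 5 were tested and had a median of 0.01, with the autophagy receptor gene *Sqstm1* at 0.15 and *Map1lc3b*, which encodes LC3B, at 0.01. The 2 genes named next were chosen after their values were seen, and the groups did not overlap for either, as for 26% of all tested genes in that direction. *Synpo2*, which encodes a BAG3 partner at the Z-disc, had 14 and 13 reads in scrambled and 5 and 5 in knockdown and a log2FC of -1.21 (unadjusted p = 0.0236, adjusted p = 0.152 from edgeR), the lowest of the 53 pathway genes. *Wipi1*, which acts in autophagosome formation, was at -0.40. *Stub1*, which encodes the ubiquitin ligase CHIP, had 0 reads in each scrambled library and 2 and 3 in knockdown, and was not tested. In the annotation 63.2% of its transcript lies opposite to exons of *Jmjd8*.

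**Figure D5:**
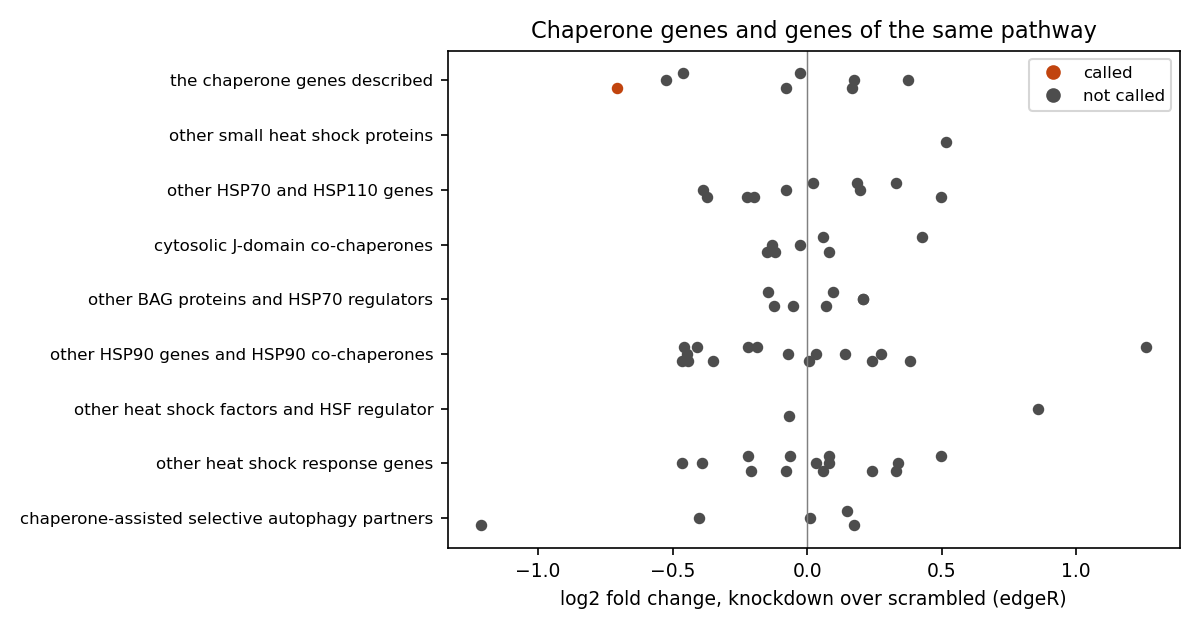
Log2FC of knockdown over scrambled from edgeR for the 8 tested chaperone genes and the 53 tested genes of 8 pathway lists, 1 point per gene, with the called gene in orange; a gene in 2 lists is drawn in both. The points of each list with more than 2 genes lie on both sides of 0, and Hspb1 at -0.71 is the only called gene.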

How the data were processed

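Direct RNA reads of 2 scrambled and 2 *Hnrnpl* knockdown C2C12 libraries were used. The authors used guppy for basecalling, minimap2 2.17 for alignment to GRCm39 and HTSeq 0.9.1 for gene counts, and the deposited counts are whole reads without normalization. The annotation release and strand setting of the counting are not given in the sources used here. Between 22.7% and 23.8% of reads were set aside for low mapping quality and 16% to 16.5% as ambiguous, which can lower genes with copies or overlaps. Symbols and positions came from GENCODE vM39 (56017 of 56748 IDs matched). Transcripts were aligned to the genome with minimap2 2.31 to find copies.

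The groups were compared by the quasi-likelihood test of edgeR 4.0.16 under R 4.3.3, after TMM and filterByExpr, with Benjamini-Hochberg adjustment over 8670 genes. DESeq2 1.42.0 in 4 configurations and 13 further alternatives were run, and the fit was tested on simulated data. The chaperone genes and pathway lists were chosen with earlier results of these data known. Named genes were the 10 chaperone genes, *Hnrnpl*, pathway genes with an adjusted p under 0.05, and the 2 tested genes of each list most abundant in normalized counts (not divided by length). A gene that this rule names is not reported here. The batches were taken from the replicate numbers of the labels, which pair the libraries. Deviations of same-numbered libraries had a correlation of 0.0026 over 4501 genes. Transcript counts, exon counts, qPCR and fly data were not used here.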

Additional observations from a re-analysis of the deposited data

How the results depend on the processing

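Of the 8 tested chaperone genes, 1 was called. None was called by DESeq2 with the parametric fit (0 with the Wald test and 0 with the likelihood-ratio test), 2 with the chromosome medians removed, and 0 to 1 when single libraries were left out. With the replicate block, 1 was called, *Hspb1* (log2 fold change -0.70, adjusted p = 0.0159 from edgeR), and no call changed. Of the pathway genes, 0 were called, against 1 without a filter on low counts (*Trap1*) and 0 to 1 when single libraries were left out (*Hsp90b1* without scrambled 1, *Hspa1b* without knockdown 2). *Hnrnpl* had a log2 fold change of -0.78 in both parametric fits of DESeq2, with adjusted p-values of 0.0567 and 0.0670, and of -1.03 to -0.48 when single libraries were left out, with an adjusted p of 0.194 without scrambled 2 and 0.1502 without knockdown 1 from edgeR. All genes tested gave 481 calls with edgeR, 115 and 112 with the parametric and 228 and 222 with the local fits of DESeq2, 286 with chromosome medians removed and 194 without knockdown 1.

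The direction of *Hspb1*, *Hspb8*, *Cryab* and *Bag3* was kept in all 17 alternatives. Other directions turned. Removal of the chromosome medians gave a log2 fold change of -0.0208 for *Hsp90ab1*, 0.0768 for *Hsf1*, 0.0546 for *Dnaja2*, 0.0195 for *Bag1*, 0.00972 for *Stip1*, -0.245 for *Fkbp4* and 0.0133 for *Hsbp1*. When single libraries were left out it ran from -1.01 to 0.25 for *Hspa8*, -0.195 to 0.0271 for *Hsp90aa1*, -0.23 to 0.14 for *Hsf1*, -0.546 to 0.0768 for *Hspa5*, -0.0900 to 0.0286 for *Dnaja2*, -0.0412 to 0.199 for *Dnaja1*, -0.26 to 0.14 for *Bag1*, -0.0277 to 0.0881 for *Fkbp4*, -0.26 to 0.11 for *Hsbp1*, -0.0118 to 0.323 for *Sqstm1*, -0.0199 to 0.0388 for *Map1lc3b* and -0.0402 to 0.854 for *Hspa1b*. The cause was not tested. A group left with 1 library was assumed to vary like the other group. *Hspb2* and *Hspa1a*, with at most 3 reads per library, were too shallow to be tested.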
